A study of Mus musculus with 4 samples.

Results

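The 31 genes described here are regulators and targets of the tumor suppressor p53, taken from a list of mouse symbols and matched one to one to 31 of the 45232 gene identifiers in the count files. RNA sequencing measured them in L-GMPs, the leukemic counterpart of granulocyte-macrophage progenitors, which were sorted at death. The mice were secondary transplant hosts of a leukemia that MLL-AF9, a fusion oncoprotein of acute myeloid leukemia, drives. The comparison sets 2 mice labelled miR-99 KD against 2 mice labelled Scr, with 1 library per mouse; the labels spell out neither KD nor Scr, and give no age, strain or sex. Both groups carried MLL-AF9, and both were sorted as GFP and tdTom positive cells with c-Kit, Sca-1, CD16/32 and CD34 on the surface. No source used here says whether the 4 mice share a primary leukemia, so p-values measure the spread between these 4 libraries. The comparison asks how genes of the p53 pathway differ in leukemic progenitors when the microRNA family miR-99 is targeted.

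The p53 protein is a transcription factor that accumulates after DNA damage and oncogenic stress, and it switches on genes of cell cycle arrest, cell death, DNA repair and metabolic restraint. Mdm2 marks p53 for degradation and Mdm4 blocks its activity, and Mdm2 is itself a p53 target, which closes a feedback loop. In myeloid leukemia, loss of p53 function is known for resistance to therapy, and MLL-rearranged leukemias often keep the gene intact.

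The miR-99 family is shown here because it is what the treatment targets; capitals mark the seed, bases 2 to 8, which is ACCCGUA in each of the 3 RefSeq (GRCm38.p6) mature sequences.
mmu-miR-99a-5p: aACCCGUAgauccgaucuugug
mmu-miR-99b-5p: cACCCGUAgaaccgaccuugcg
mmu-miR-100-5p: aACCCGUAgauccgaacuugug
No library held a read of the precursor genes (0 counts for Mir99a, Mir99b and Mir100). Mature microRNAs are not captured by libraries of this kind, so how far miR-99 was lowered cannot be read from them.

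Among the 31 genes, the longest annotated 3' UTR of only 1, Mdm4, held a seed match, searched as TACGGGT (bases 2 to 8) or ACGGGTA (bases 2 to 7 followed by A) on the transcript strand. These 2 motifs can overlap by 6 bases. A match was found in 1.9% of 20706 genes with an annotated 3' UTR. The Mdm4 match lies on chromosome 1, 2992 bases into a 3' UTR of 5436 bases, and capitals mark the matching letters.
Mdm4 seed match: gggctggaACGGGTAgattacat

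Promoter windows, from 250 bases before to 50 bases after a RefSeq start site, were found for 23 of the 31 genes, and 5 of the 23 held a match to the p53 response element. The element was searched by its consensus of 2 adjoining half-sites, which reads alike on both strands, with up to 1 base between them and at most 3 of 20 positions off the consensus. The core C and G of each half-site had to match. The same search found a match in 3.22% of 19042 genes. With at most 2 positions off, the limit tried first, it was 1 of 23, Ccng1, against 0.782% of genes; the wider limit was chosen after that result was seen. Capitals mark the 20 letters of each site, those off the consensus included (1 in Ccng1 and 3 in each of the others), on GRCm38.p6 and in the direction of the gene. The sites are shown because direct p53 targets are known by such elements; a match describes the letters and not binding.
Ccng1, chr11:40755462-40755481, minus strand: aggccAGACCTGCCCGGGCAAGCCTtggc
Bbc3, chr7:16309486-16309505, plus strand: cccgaCTGCAAGCCCCGACTTGTCCccag
Aen, chr7:78895937-78895956, plus strand: aagccGGGCTTGTCCGGGCAAGGAGcttc
Sesn1, chr10:41887266-41887285, plus strand: ccttcAAGCTTGTTTTTGCTGGCCTggtc
Trp53, chr11:69580284-69580303, plus strand: cggaaGGACTTGCCCTTACTTGTTAtggc

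Total gene counts were 42674407 and 42529111 in miR-99 KD and 38458519 and 41870314 in Scr. Scr 1 stood apart, with at least 1 count in 28573 genes against 21372 to 24038 in the other 3 libraries, and with 51.9 CPM (counts scaled to library size) in olfactory receptor genes against 4.78 to 14.95. Of the sort markers, Kit had 307 and 234 CPM in miR-99 KD, against 424 and 437 CPM in Scr. Cd34 lay apart in the other direction, with 356 and 336 CPM in miR-99 KD, against 334 and 292 CPM in Scr. So did Fcgr3 (426 and 486 CPM in miR-99 KD, against 408 and 382 CPM in Scr). Fcgr2b did too, with 150 and 154 CPM in miR-99 KD, against 126 and 121 CPM in Scr. Ly6a, the gene of Sca-1, had 0.0948 to 0.197 CPM, although the labels list Sca-1 as positive. The leukemia genes Hoxa9 (174 and 166 CPM in miR-99 KD, against 281 and 362 CPM in Scr) and Meis1 (238 and 197 CPM in miR-99 KD, against 336 and 329 CPM in Scr) lay apart between the groups. Mitochondrially encoded genes took 0.853% and 1.16% of counts in miR-99 KD, against 0.650% and 0.637% in Scr. The 13 genes fixed as markers of granulocyte maturation all had at least 10 counts in every library, and their summed level was 11496 and 24709.7 CPM in miR-99 KD, against 5982 and 4446 CPM in Scr. Elane, Mpo and Ngp made up most of this sum. Ctsg (618 and 891 CPM in miR-99 KD, against 693 and 919 CPM in Scr), Cebpe and Mmp8 overlapped between the groups. The other markers of granulocyte maturation were higher in both miR-99 KD libraries. The part of these markers and of the mitochondrial share in the results below was not tested. Summed levels of 10 monocyte and macrophage markers (636 and 834 CPM in miR-99 KD, against 700.2 and 599 CPM in Scr), 7 B cell markers (66.2 and 90.1 CPM in miR-99 KD, against 73.3 and 63.6 CPM in Scr) and 9 T and NK cell markers (157 and 162 CPM in miR-99 KD, against 157 and 119 CPM in Scr) overlapped between the groups. So did the sum of 10 erythroid markers, at 53.2 and 130.2 CPM in miR-99 KD, against 81.6 and 110.2 CPM in Scr. The globin genes Hbb-bs and Hba-a1 made up most of the erythroid sum. Slc4a1 (40 and 85 counts in miR-99 KD, 226 and 730 counts in Scr) was lower in both miR-99 KD libraries. So were Klf1, Car1 and Epor at low counts, while the other erythroid markers overlapped. Of the monocyte and macrophage markers, Csf1r, Ly86 and Cx3cr1 were higher in both miR-99 KD libraries. Ccr2 was lower in both (57.3 and 74.8 CPM in miR-99 KD, against 84.1 and 103 CPM in Scr). Mrc1, C1qa and C1qb were also lower in both, at low levels, while Adgre1, Cd68 and C1qc overlapped. Cd79b (61.9 to 88.8 CPM) made up most of the B cell sum and Nkg7 (116 to 161 CPM) most of the T and NK cell sum, while Pax5, Cd3g, Cd8a and Ncr1 were at 0 to 0.0729 CPM in every library. At low counts, Klrb1c had 11 and 10 counts in miR-99 KD and 50 and 60 counts in Scr, and Lck had 25 and 26 counts in miR-99 KD and 51 and 64 counts in Scr. The 9 markers of stroma and endothelium summed to 363 and 278 CPM in miR-99 KD, against 568 and 562 CPM in Scr. Vcam1 and Pecam1 made up most of these sums and lay apart in opposite directions. Vcam1 had 207 and 138 CPM in miR-99 KD, against 445 and 444 CPM in Scr, and Pecam1 had 154 and 136 CPM in miR-99 KD, against 114.6 and 114.8 CPM in Scr. Cdh5 was at 0 in both miR-99 KD libraries and at 0.0486 and 0.0246 CPM in Scr.

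Levels are given in CPM after TMM scaling, which corrects for differences in library composition, and a log2 fold change is miR-99 KD relative to Scr, from edgeR's quasi-likelihood test, with its standard error (SE). Of the 31 genes 30 passed the filter on low counts. None of the 30 passed an adjusted p of 0.05 over all genes in edgeR, where 0% of 15591 genes did, or in limma-voom. DESeq2 called 0 of the 30 and 1.67% of all genes tested (0.725% with higher values in miR-99 KD, 0.949% with lower). With no adjustment, edgeR had a p under 0.05 in 3 of the 30, where 7.89% of all genes tested passed. All 3, Pmaip1, Sesn2 and Plk2, had lower values in miR-99 KD, as did 5.23% of all genes tested, and 0 had higher values, as did 2.66%. Without Scr 2, log2 fold changes of Perp, Ppm1d and Sesn3 rose from 1.06, 0.37 and 0.53 to 2.19, 2.28 and 3.01. Without miR-99 KD 1, those of Xpc, Aen and Mdm4 went from −0.35, −0.49 and −0.35 to −0.38, −0.91 and −0.61. Without Scr 1, edgeR called 0 of the 30 at an adjusted p of 0.05 and 1.85% of 15910 genes (0.993% with higher values in miR-99 KD, 0.855% with lower). With no adjustment it then had a p under 0.05 in 2 of the 30, Pmaip1 and Sesn2, where 6.86% of all genes passed; both were lower, as were 3.73% of all genes, and 0 were higher, as were 3.13%. Over the 30 genes the median log2 fold change came to −0.11 (11 positive, 19 negative), against −0.01 over all genes tested, of which 49% were positive and 51% negative. The median was −0.27 without Scr 1, 0.031 without Scr 2, −0.38 without miR-99 KD 1 and 0.019 without miR-99 KD 2, so its sign rests on single libraries. In bulk RNA, fewer cells of a type and less RNA per cell cannot be told apart.

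**Figure D1:**
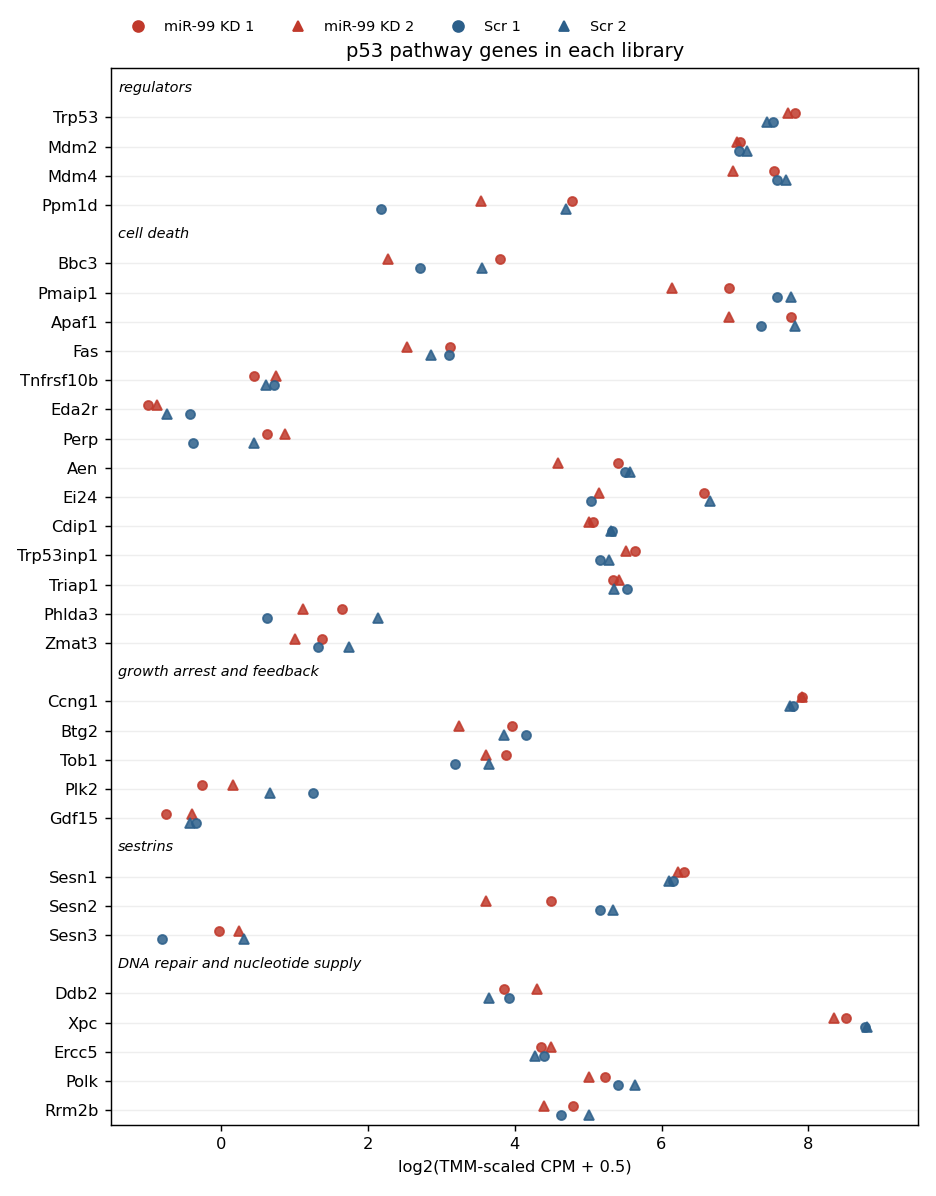
Level of each of the 31 genes in each library, as log2(TMM-scaled CPM + 0.5) on the x axis, with genes grouped by role; each symbol is 1 library, red for miR-99 KD and blue for Scr. Pmaip1, Sesn2 and Plk2 show both miR-99 KD libraries left of both Scr libraries. Libraries differ by more than 1 log2 unit inside each group in Ppm1d and Ei24, in miR-99 KD alone in Bbc3 and in Scr alone in Phlda3.

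Per kilobase of exon, the most abundant members over the 4 libraries were the damage sensor Xpc (71.7 CPM per kb), the cyclin gene Ccng1 (65.3), the death gene Pmaip1 (54.7), Trp53 itself (48.8) and Triap1 (38.7). Mdm2 followed at 26.5 CPM per kb and Mdm4 at 11.9 CPM per kb. Perp, Plk2, Tnfrsf10b, Zmat3, Gdf15, Sesn3 and Eda2r lay under 0.5 CPM per kb. The list therefore spans abundant transcripts and transcripts close to the limit of detection, and the low ones rest on few reads. Eda2r, a receptor of the tumor necrosis factor family, had 0 and 2 counts in miR-99 KD and 10 and 4 counts in Scr and was not tested.

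No regulator of the list passed the test. Trp53 (chromosome 11, 69580359 to 69591873 on GRCm38) had 224 and 210 CPM in miR-99 KD, against 183 and 173 CPM in Scr. Both miR-99 KD libraries lay above both Scr libraries, and the difference of means exceeded the spread in either group. The log2 fold change was 0.29 ± 0.15 (SE), a ratio of 1.22, with an edgeR adjusted p of 0.681. It ranged from 0.30 to 0.40 when single libraries were left out, always above the value from all libraries. Each such fit was filtered and scaled anew, so the range does not measure the weight of single libraries alone. The annotated pseudogene Trp53-ps had 0 counts in every library.

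Mdm2 and Mdm4 encode the pair of proteins that hold p53 in check. Mdm2 (chromosome 10, 117688875 to 117710758) had 134 and 131 CPM in miR-99 KD, against 133 and 143 CPM in Scr. The groups overlapped, and the 95% interval of the log2 fold change (−0.06 ± 0.15 SE) ran from −0.45 to 0.34. Mdm4 (chromosome 1, 132959484 to 133030561), the gene with the seed match, had 185 and 125 CPM in miR-99 KD, against 189 and 206 CPM in Scr. MiR-99 KD 2 was the low library and miR-99 KD 1 was close to Scr 1. The log2 fold change of Mdm4 was −0.35 ± 0.24 (SE), with an edgeR adjusted p of 0.732 and a range of −0.61 to −0.07 without single libraries. Its pseudogene Mdm4-ps had 73 and 44 counts in miR-99 KD and 69 and 60 counts in Scr.

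Ppm1d, a phosphatase that switches off the damage response and p53, had 27.0 and 11.2 CPM in miR-99 KD, against 4.04 and 25.5 CPM in Scr. Its values differed more within each group than between them. The log2 fold change of 0.37 ± 0.96 (SE) became −0.36 without Scr 1 and 2.28 without Scr 2.

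**Figure D2:**
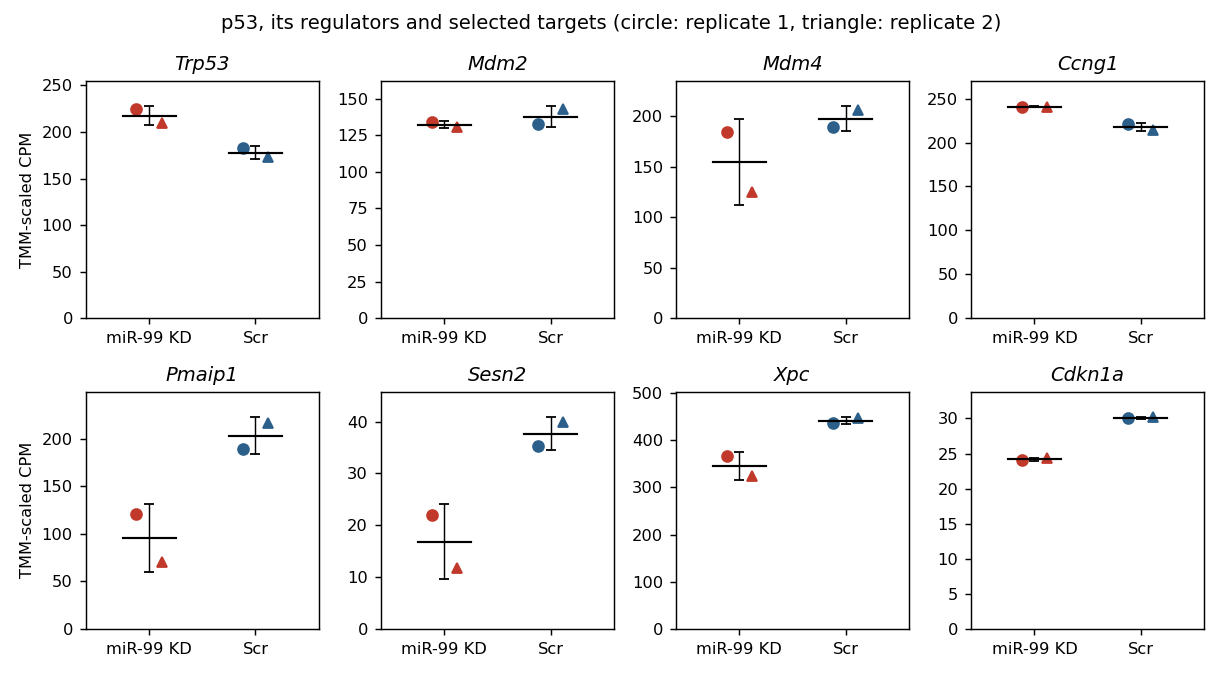
TMM-scaled CPM (y axis, from 0) of 8 genes, with miR-99 KD left of Scr; circles and triangles are replicates 1 and 2, horizontal lines the group means and bars ± 1 SD (n = 2). Pmaip1 and Sesn2 have their lowest point in miR-99 KD 2, and Ccng1 and Mdm2 differ little.

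Cell death genes held the member with the smallest p. Pmaip1 (chromosome 18, 66458533 to 66465565) encodes Noxa, a BH3-only protein that counters Mcl1 and primes mitochondria for apoptosis. It had 121 and 70.1 CPM in miR-99 KD, against 189 and 217 CPM in Scr. Both miR-99 KD libraries lay below both Scr libraries, and miR-99 KD 2, the library with the highest granulocyte marker sum and mitochondrial share, was the lowest. Group means were 95.5 ± 36.0 CPM in miR-99 KD, against 203 ± 19.6 CPM in Scr (SD, n = 2 each). The log2 fold change was −1.09 ± 0.31 (SE), a ratio of 0.470, with an unadjusted edgeR p of 0.0210 and an adjusted p of 0.580 over all genes. It was −0.72 without miR-99 KD 2, −1.48 without miR-99 KD 1, −1.12 without Scr 1 and −0.94 without Scr 2, where the unadjusted p no longer passed 0.05, and DESeq2 gave an adjusted p of 0.197.

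Bbc3 encodes Puma, another classical BH3-only p53 target. It had 13.4 and 4.34 CPM in miR-99 KD, against 6.05 and 11.2 CPM in Scr. The high libraries were miR-99 KD 1 and Scr 2, and the groups overlapped. With a log2 fold change of 0.04 ± 0.65 (SE) and a 95% interval of −1.69 to 1.77, a change as large as that of Pmaip1 is inside the interval. The difference between Pmaip1 and Bbc3 was not tested.

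Other death genes lay apart between the groups without passing the test. Trp53inp1, a stress protein that promotes autophagy and death, had 49.2 and 45.4 CPM in miR-99 KD, against 35.2 and 38.6 CPM in Scr. Its groups did not overlap (log2 fold change 0.36 ± 0.18 SE, edgeR adjusted p 0.682). Cdip1, a pro-apoptotic membrane protein, had 33.1 and 31.8 CPM in miR-99 KD, against 39.8 and 39.3 CPM in Scr. Here too the groups did not overlap, in the opposite direction (−0.28 ± 0.18 SE, edgeR adjusted p 0.709). Exons of Cdip1 overlap those of Hmox2 on the other strand, so its count is uncertain. Perp, a membrane protein of cell junctions and apoptosis, stayed low, with 1.04 and 1.33 CPM in miR-99 KD, against 0.267 and 0.862 CPM in Scr. Scr 1 was the low library, and the log2 fold change of 1.06 ± 0.64 (SE, edgeR adjusted p 0.705) was 0.53 without Scr 1 and 2.19 without Scr 2.

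The remaining tested cell death genes overlapped between the groups, apart from Aen, a nuclease that enhances apoptosis. Aen had 42.0 and 23.5 CPM in miR-99 KD, against 44.9 and 47.1 CPM in Scr, where miR-99 KD 2 alone was far from the rest (log2 fold change −0.49 ± 0.33 SE). Ei24, a membrane protein of the endoplasmic reticulum, had 94.9 and 35.1 CPM in miR-99 KD, against 32.4 and 101 CPM in Scr. Each group thus held a high and a low library, and exons of Ei24 overlap the antisense gene Gm26787. Apaf1, the scaffold of the apoptosome, had 216 and 121 CPM in miR-99 KD, against 163 and 226 CPM in Scr, and Phlda3, an inhibitor of Akt, had 2.64 and 1.66 CPM in miR-99 KD, against 1.05 and 3.92 CPM in Scr. The death receptor genes Fas (5.29 to 8.22 CPM over the 4 libraries) and Tnfrsf10b (0.871 to 1.18 CPM), the survival factor Triap1 (39.9 to 45.7 CPM) and the RNA-binding protein gene Zmat3 (1.52 to 2.86 CPM) had log2 fold changes between −0.42 and −0.06. Of the 13 cell death genes tested, 3 had positive and 10 negative log2 fold changes, with a median of −0.14. Over all genes tested, 49% were positive and 51% negative. Without Scr 1, 5 cell death genes were positive and 8 negative, with a median of −0.29, so the split rests in part on single libraries.

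Sestrins restrain mTORC1 and oxidative stress, and none of their 3 genes passed the test. Sesn2 (chromosome 4, 132492032 to 132510501), which senses leucine for mTORC1, had 22.0 and 11.7 CPM in miR-99 KD, against 35.4 and 39.9 CPM in Scr. Both miR-99 KD libraries lay below both Scr libraries, and the lowest was again miR-99 KD 2. The log2 fold change was −1.16 ± 0.36 (SE), a ratio of 0.447, with an unadjusted edgeR p of 0.0284 and an adjusted p of 0.595. It was −0.74 without miR-99 KD 2, −1.63 without miR-99 KD 1 and −1.03 without Scr 2, where the unadjusted p no longer passed 0.05, and DESeq2 gave an adjusted p of 0.226. Sesn1 held a match to the p53 element in 1 of its promoter windows, 3 positions off the consensus. It had 78.9 and 74.2 CPM in miR-99 KD, against 71.1 and 68.3 CPM in Scr. Its groups did not overlap in the other direction, but the log2 fold change was only 0.13 ± 0.16 (SE, edgeR adjusted p 0.818). Sesn3 had 20 and 29 counts in miR-99 KD and 3 and 30 counts in Scr, so its log2 fold change of 0.53 ± 1.03 (SE) rests on Scr 1 and was −0.26 without it. Differences between the sestrin genes were not tested.

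Growth arrest genes had 2 positive and 3 negative log2 fold changes. Ccng1 (cyclin G1, a feedback regulator of p53), whose promoter match is 1 position off the consensus, had 241 and 241 CPM in miR-99 KD, against 221 and 214 CPM in Scr. The groups did not overlap, yet the log2 fold change was 0.14 ± 0.14 (SE, edgeR adjusted p 0.780), with a 95% interval of −0.23 to 0.52. Plk2, a polo-like kinase induced by p53, had 14 and 26 counts in miR-99 KD and 77 and 44 counts in Scr. All 4 libraries lay under 2 CPM, at 0.339 and 0.616 CPM in miR-99 KD, against 1.87 and 1.08 CPM in Scr. Its log2 fold change was −1.62 ± 0.51 (SE), with an unadjusted edgeR p of 0.0293 and an adjusted p of 0.600. It was −1.10 without Scr 1, −1.91 without Scr 2, −1.20 without miR-99 KD 1 and −2.08 without miR-99 KD 2, and of these only the fit without Scr 2 kept an unadjusted p under 0.05.

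Btg2 and Tob1 are related antiproliferative proteins that recruit the deadenylase complex to mRNA. Tob1 had 14.2 and 11.7 CPM in miR-99 KD, against 8.58 and 12 CPM in Scr (log2 fold change 0.33 ± 0.28 SE, edgeR adjusted p 0.755). Btg2 had 15.1 and 8.96 CPM in miR-99 KD, against 17.3 and 14.0 CPM in Scr (−0.38 ± 0.34 SE, edgeR adjusted p 0.766). Both pairs of groups overlapped. Gdf15, a stress cytokine induced by p53 in many tissues, had 4 and 11 counts in miR-99 KD and 12 and 10 counts in Scr, under 0.3 CPM in every library.

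Of the DNA repair genes, Xpc and Polk were lower in both miR-99 KD libraries than in both Scr libraries, without passing the test. Xpc, which recognizes damage in nucleotide excision repair, had 366 and 325 CPM in miR-99 KD, against 437 and 447 CPM in Scr. Its log2 fold change was −0.35 ± 0.15 (SE, edgeR unadjusted p 0.0686, adjusted p 0.655), with a range of −0.38 to −0.24 without single libraries. Polk, a translesion DNA polymerase, had 37.1 and 31.6 CPM in miR-99 KD, against 41.9 and 49.4 CPM in Scr (−0.41 ± 0.21 SE, edgeR adjusted p 0.681). Ddb2, which also recognizes damage in nucleotide excision repair, had 13.9 and 19.3 CPM in miR-99 KD, against 14.7 and 12.1 CPM in Scr (0.31 ± 0.27 SE, edgeR adjusted p 0.763), and these groups overlapped. Exons of Ddb2 overlap those of Acp2 on the other strand. The repair endonuclease gene Ercc5 (18.9 to 22.0 CPM) and Rrm2b, a ribonucleotide reductase subunit that supplies nucleotides for repair (20.5 to 31.9 CPM), had log2 fold changes of 0.08 and −0.24. Exons of Rrm2b overlap the antisense gene Gm49085.

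**Figure D3:**
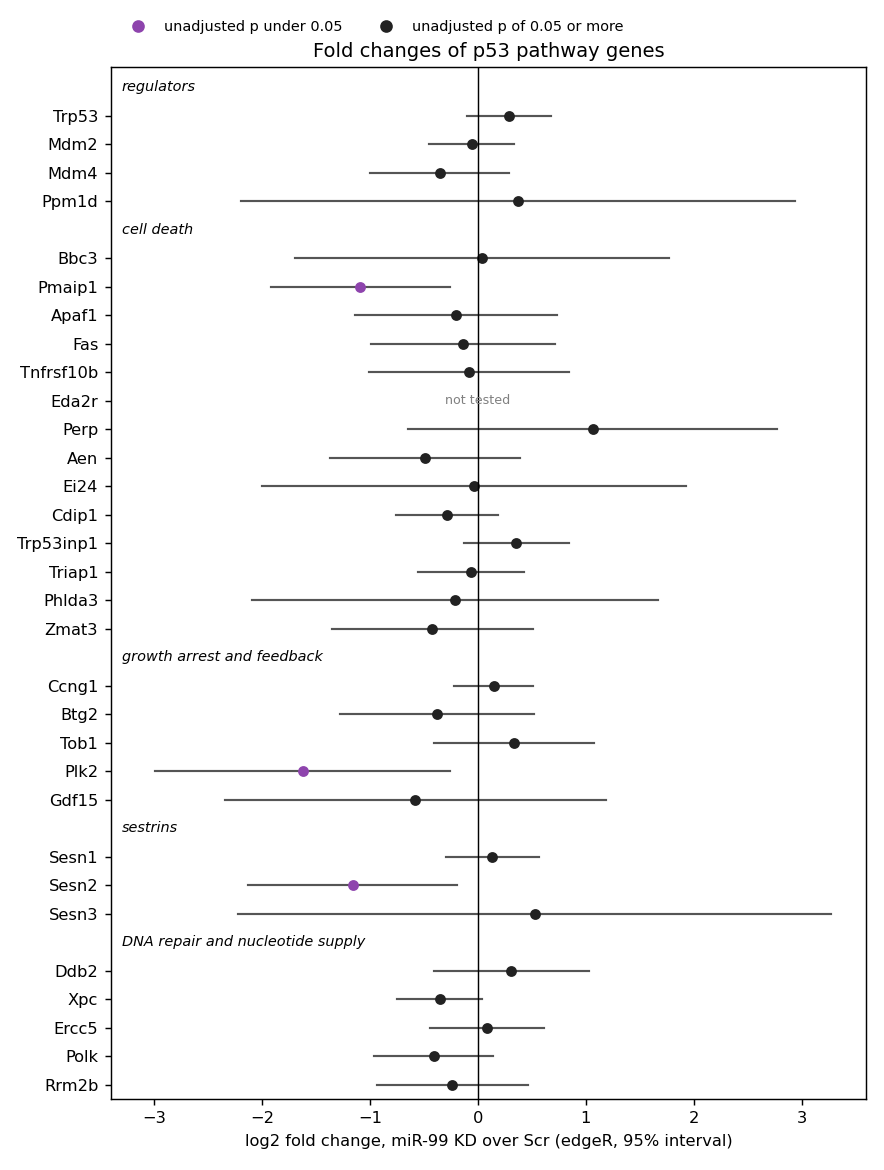
Log2 fold change of miR-99 KD over Scr (x axis) for each gene, grouped by role; points are edgeR estimates, lines their 95% intervals, and purple marks an unadjusted p under 0.05. The intervals of Pmaip1, Sesn2 and Plk2 lie left of 0, and the other 27 cross 0.

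Both miR-99 KD libraries lay below both Scr libraries in 8 of the 30 tested genes and above them in 5, where 25.3% and 18.9% of all genes tested did so. The 8 were Pmaip1, Sesn2, Plk2, Xpc, Polk, Cdip1, Aen and Mdm4, and the 5 were Trp53, Trp53inp1, Perp, Ccng1 and Sesn1. The difference between group means, on the log2(CPM + 0.5) scale, exceeded the difference within both groups in 10 of the 30, against 28.8% of all genes tested. In 5 of the 30 the libraries of a group differed by more than 1 log2 unit (Ppm1d, Bbc3, Ei24, Phlda3 and Sesn3), as in 15.2% of all genes tested. Shares of both kinds among the 30 were thus close to those of all genes. MiR-99 KD 2 held the lowest value of the 4 libraries in 14 of the 30 genes, against 33.6% of all genes tested, and Scr 2 held the highest in 13, against 26.8%.

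**Figure D4:**
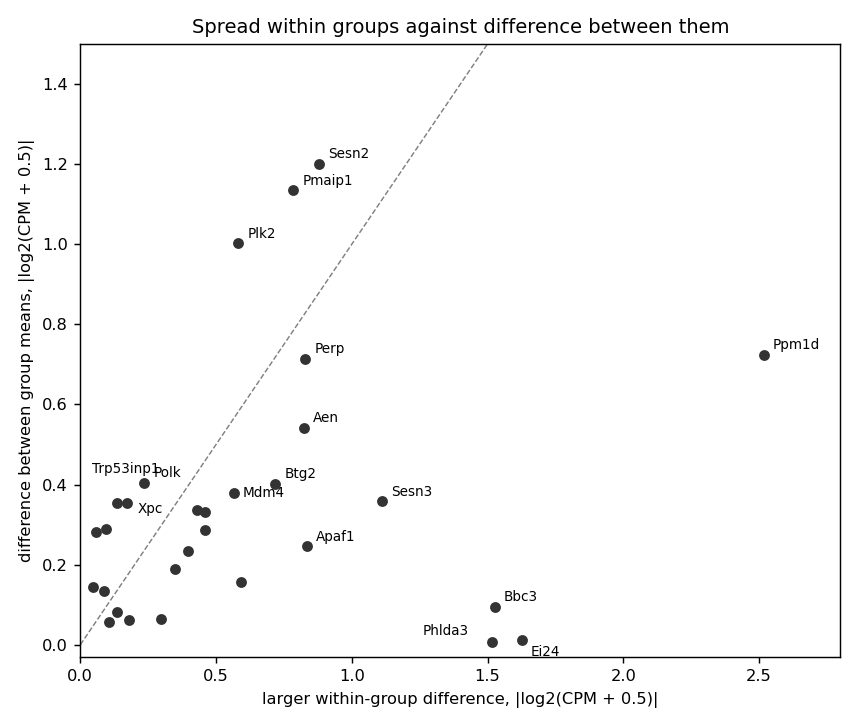
Difference between group means (y axis) against the larger of the within-group differences (x axis) for the 30 tested genes, both as absolute values of log2(CPM + 0.5); the dashed line marks equality. Sesn2, Pmaip1 and Plk2 lie above the line, and Ppm1d, Bbc3, Ei24, Phlda3 and Sesn3 lie far right of it.

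A further 43 genes of the p53 pathway, 18 upstream regulators and 25 targets, were described as a second list. Of 39 tested, 0 passed in edgeR over all genes or in DESeq2. With no adjustment, edgeR had a p under 0.05 in 1 with higher and 2 with lower values in miR-99 KD, where 2.66% and 5.23% of all genes tested did so. Over all genes tested, edgeR called 0% and DESeq2 1.67%. The median log2 fold change of the 39 was −0.05 (18 positive, 21 negative), against −0.01 over all genes tested. Cdkn1a, which encodes the cell cycle inhibitor p21 and is the best known p53 target, had 24.01 and 24.3 CPM in miR-99 KD, against 30.0 and 30.2 CPM in Scr. The groups did not overlap (log2 fold change −0.32 ± 0.18 SE, edgeR adjusted p 0.700). Bax, a pore former of apoptosis, had 93.3 and 60.8 CPM in miR-99 KD, against 91.4 and 89.9 CPM in Scr, and Gadd45a, a stress response gene, had 12.7 and 10.9 CPM in miR-99 KD, against 10.5 and 12.9 CPM in Scr. Both overlapped between the groups. The same held for the damage kinase gene Atm (65.8 and 38.2 CPM in miR-99 KD, against 53.2 and 65.5 CPM in Scr) and for Cdkn2a, the locus of the Mdm2 inhibitor Arf (45 and 16 counts in miR-99 KD, 43 and 52 counts in Scr).

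The upstream gene with the smallest p was Usp7, a deubiquitinase that stabilizes Mdm2 and p53. It had 61.3 and 45.1 CPM in miR-99 KD, against 100.2 and 108 CPM in Scr, a log2 fold change of −0.97 ± 0.22 (SE) with an unadjusted edgeR p of 0.00910 and an adjusted p of 0.505. Npm1, a nucleolar protein that holds Arf, had 299.8 and 362 CPM in miR-99 KD, against 242 and 259 CPM in Scr (0.40 ± 0.17 SE, edgeR adjusted p 0.655). The groups overlapped in neither gene, and Npm1 has processed copies that make its count uncertain. Of the targets, Shisa5, a death protein of the endoplasmic reticulum, had 127 and 121 CPM in miR-99 KD, against 185 and 161 CPM in Scr (−0.49 ± 0.16 SE, edgeR adjusted p 0.611). Ccng2, the relative of cyclin G1, had 104.8 and 98.7 CPM in miR-99 KD, against 36.4 and 67.1 CPM in Scr (0.97 ± 0.34 SE, edgeR adjusted p 0.621), and its log2 fold change was 0.67 without Scr 1.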

How the data were processed

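Per the file headers and values, the deposited files hold raw read counts per Ensembl gene identifier, 1 file per library, with 5 categories that name no gene; these held 43.7% to 49.7% of all entries and were left out. Per the submitters' processing notes, STAR, Picard, HTSeq and DESeq2 were used, with build mm9; annotation release and strand setting were not given there. The deposited files count alignments that were not unique apart from genes, so genes with pseudogenes, such as Npm1, are uncertain. Symbols (44585 of 45232 identifiers), gene coordinates, exon lengths and 3' UTRs came from GENCODE M21 on GRCm38, by identifier, and sequences of promoters and microRNAs from RefSeq.

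The main test was edgeR 4.0.16 (R 4.3.3), quasi-likelihood, with TMM factors and a minimum count of 10, two-sided and Benjamini-Hochberg adjusted over 15591 genes. DESeq2 1.42.0 and limma 3.58.1 (voom) were alternatives, beside other scaling factors, filters, a replicate block and leaving out each library. The functions were checked on simulated counts with less spread than these data and larger changes than the members showed. That check therefore does not measure power here. A count of 0 allows up to 3 counts, 0.0703 to 0.0780 CPM, for counting error only. The rule for genes with full values took Trp53, Mdm2, Mdm4 and the 6 with the smallest p in each direction; values of other members, such as Sesn1 and Btg2, were added after they were seen. Among the other pathway genes they were 5 fixed genes and the 2 with the smallest p in each direction. Members and lists were chosen with earlier results of these data known.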

Additional observations from a re-analysis of the deposited data

How the results depend on the processing

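None of the 31 genes passed the adjusted threshold under any setting tried, and Pmaip1, Sesn2 and Plk2 kept a negative log2 fold change in every fit that tested them. The number of genes called over the whole table was 0 in edgeR, 23 with upper-quartile factors, 9 with no filter on low counts, 261 in DESeq2 and between 0 and 294 with single libraries left out; the 294 came without Scr 1, where DESeq2 called 139 (this combination was added once the data had been seen). Leaving out single libraries moved the number of members at an unadjusted p under 0.05 between 0 and 3 higher and between 1 and 5 lower, and the median between −0.38 and 0.031; the 3 higher (Perp, Ppm1d and Sesn3) came without Scr 2. Fold changes of Bbc3 turned to −0.11 in limma-voom and with the replicate block. Those of Ei24 turned to 0.0034 with DESeq2 size factors and in DESeq2, 0.012 in limma-voom and with the block, and 0.0079 with no filter, and those of Phlda3 to 0.046 in limma-voom and 0.027 with the block; the cause was not tested. With single libraries left out, signs also turned for Mdm2 (−0.038 to 0.046), Ppm1d (−0.36 to 2.28), Bbc3 (−0.94 to 0.67), Apaf1 (−0.63 to 0.19), Fas (−0.43 to 0.17), Tnfrsf10b (−0.29 to 0.18), Ei24 (−0.87 to 1.05), Triap1 (−0.10 to 0.10), Phlda3 (−0.80 to 1.08), Gdf15 (−1.42 to 0.015), Sesn3 (−0.26 to 3.01) and Rrm2b (−0.40 to 0.016). DESeq2 without Scr 1 turned Ppm1d to −0.35, Bbc3 to −0.28, Fas to 0.070, Tnfrsf10b to 0.071, Triap1 to 0.11 and Sesn3 to −0.25. Such fits leave 1 library in a group, assumed to vary like the other group. Among them, a share of all genes at an unadjusted p under 0.05 is given only for edgeR without Scr 1. For the other such fits, the numbers of members at that threshold cannot be set against all genes, and nothing is concluded from them.

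The labels give both groups the replicate numbers 1 and 2 without saying that a number marks a shared litter, batch or day, and deviations of same-numbered libraries from their group means correlated at r = −0.44 over 15591 genes. The fit with the replicate block called 0 genes and 0 members. Its log2 fold changes of Pmaip1, Sesn2 and Plk2 were −1.14, −1.23 and −1.62, and Plk2 no longer had an unadjusted edgeR p under 0.05. A crossed block, added after seeing the data, called 28 genes and 0 members, and turned Bbc3 to −0.10, Ei24 to 0.012 and Phlda3 to 0.011. With 2 libraries per group and a biological coefficient of variation of 0.320, changes of the size seen for most members could not be told from the spread between libraries, and genes under 2 CPM are limited by their counts.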
